A study of Caenorhabditis elegans with 14 samples.

Results

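Total small RNA of Caenorhabditis elegans carrying susi-1(R457H), a point mutation in the gene also named disl-2, was compared with that of the wild-type strain N2, using the deposited count table of each. The pair makes up 2 of the 14 samples of the series, with 1 library a side, and the tables hold 45510 genes in 13 RNA classes. The other 12 samples, described here only where a value of theirs stands beside one of the pair, hold 3 further total small RNA libraries, 4 libraries of small RNA pulled down with the Argonaute NRDE-3 and 5 libraries of 26S ribosomal RNA (rRNA) ends. Per the labels, both samples of the pair came from embryos kept at 20 °C in the N2 background, the genotypes were wild type and susi-1(R457H), and neither label names a transgene. RNAs of 20 to 30 nt were cut from a gel, and their 5′ ends were made ready for ligation by phosphatase and then kinase, so RNAs with a 5′ triphosphate and fragments of longer RNAs both entered. The growth protocol, per the labels, also mentions larvae put on plates, and their relation to the embryos is not stated there.

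As background, SUSI-1 is the worm relative of DIS3L2, an exonuclease that degrades RNAs whose 3′ ends carry added uridines. The risiRNAs are small interfering RNAs (siRNAs) antisense to rRNA, which RNA-dependent RNA polymerases copy from rRNA and which NRDE-3 carries into the nucleus, where they lower pre-rRNA. Most other worm siRNAs are made in the same manner from messenger RNAs (mRNAs), pseudogenes and transposons and are therefore antisense to them, while the sense reads of an mRNA, transfer RNA (tRNA) or rRNA are pieces of that RNA. The comparison asks how the mutation alters these small RNAs.

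The N2 library held 6161946 reads assigned to genes and the mutant library 6266873. Of these, 82.6% and 89.9% were rRNA, which left 1071704 and 634501 reads for all other genes. Values in CPM are counts per 1000000 reads, over assigned reads for rRNA and over non-rRNA reads for all else, and ratios are mutant over N2. With 1 library a side no difference has a replicate check: ranges in parentheses are exact 95% intervals of counting error only, reads carry no molecular identifiers, and no p was computed. Entries of 1 gene were summed, so a read may be counted in more than 1 entry. Sums may then exceed the true number of reads, and the intervals and calls that rest on them may be too narrow or too many. The choice of total matters, because whole classes moved against each other. Against the scale of non-rRNA reads, log2 ratios shift by -0.78 with assigned reads, by 0.83 with DESeq2 size factors and by 0.55 with edgeR's TMM. They shift by 1.38 with microRNA reads and by -0.18 with the median ratio of 1441 genes. The DESeq2 factors are a median ratio without a read minimum, so genes with few reads weigh in them, whereas the 1441 genes had 20 or more reads. In these bulk samples, fewer cells of a type and less RNA per cell cannot be told apart.

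Some values set the libraries apart before any class is compared. Sense reads of nrde-3, the gene of the Argonaute itself, numbered 31 in N2 (28.9 CPM) and 270 in the mutant (426 CPM), 14.7-fold more (10.1 to 22.1), which was the highest ratio among 385 protein-coding genes with 200 or more sense reads. The next, of the ribosomal protein gene rpl-31, was 5.53. Sense reads of nrde-3 stood at 225 CPM in N2 after cold shock, whose label names no transgene, and at 297 and 374 CPM in the eri-1 libraries without and with ultraviolet light (UV), whose labels name a tagged nrde-3. The part of nrde-3 dose in the results below was not tested. The mutated gene disl-2 had 9 sense and 79 antisense reads in N2 and 18 and 26 in the mutant, and the point mutation cannot be read from counts.

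The embryo label was checked with microRNAs. The mir-35 family, found mainly in embryos, made up 24.3% of microRNA reads in N2 and 18.2% in the mutant. The larval microRNAs let-7, mir-84, mir-241 and lin-4 together made up 0.0999% and 0.268%. Of these, let-7 had 206 and 129 reads, whereas mir-84, mir-241 and lin-4 had 2, 2 and 1 in N2 and 0 in the mutant, which allows up to 4.73 CPM. The muscle microRNA mir-1 had 10 and 5 reads, and the neuronal microRNAs mir-124 and lsy-6 had 9 and 10 in N2 and 0 and 2 in the mutant. Germline piRNAs, small RNAs of the Argonaute PRG-1, stood at 2529 CPM in N2 and 949 CPM in the mutant, with 696 and 254 of 15365 entries detected. The part of embryo stage in the differences below was not tested.

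Reads antisense to the large rRNAs were several times more abundant in the mutant. For the 26S gene rrn-3.1 (build WBcel235, I:15064838-15068346), N2 had 129 antisense reads and the mutant 1025, a ratio of 7.81 (6.50 to 9.46). The sense strand of the same gene hardly differed, at 0.972 of the N2 level (0.970 to 0.973). Taken within the gene, antisense reads therefore made up 44.7 per 1000000 reads of 26S rRNA in N2 (37.3 to 53.2) and 359.6 in the mutant (337.9 to 382.3). Both copies of 18S rRNA behaved alike in direction. Antisense reads of rrn-1.1 (I:15062083-15063836) numbered 3 in N2 and 84 in the mutant, and those of rrn-1.2 (I:15069280-15071033) 9 and 48, for a joint ratio of 10.8 (5.99 to 21.5). The sources used here do not say how reads that match both copies were assigned.

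For the smaller rRNAs no such difference was detectable over assigned reads. Antisense reads of 5.8S rRNA (rrn-2.1, I:15064301-15064453) numbered 24 and 21, a ratio of 0.860 (0.456 to 1.61). Antisense reads of 13 copies of 5S rRNA numbered 10 and 17, a ratio of 1.67 (0.723 to 4.08). On this scale counting error alone leaves room for a difference of either sign in both. The 5S interval lies above 1 on the other scales, with 2.87 over non-rRNA reads (1.24 to 7.02) and 2.54 with the median ratio. Both ratios are above 2 with DESeq2, TMM and microRNA reads, as given in the closing section.

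The files also list 4 entries on the opposite strand of the rRNA repeat, whose sense reads are antisense to the repeat. F31C3.14, which overlaps the 3′ end of 26S rRNA, had 23 such reads in N2 and 214 in the mutant, 9.15-fold more (5.94 to 14.7). F31C3.16, at I:15060861-15061159, lies 923 bp before rrn-1.1 and had 10 and 82, 8.06-fold more (4.17 to 17.4). Moved on by the 7197 bp between both 18S copies, it falls at I:15068058-15068356, over the 3′ end of 26S rRNA, with 289 of its 299 bases inside rrn-3.1. It may therefore hold the sequence that F31C3.14 covers, and both may share reads. F31C3.15 and F31C3.13, both over 18S rRNA, had 1 and 0 reads in N2 and 5 and 1 in the mutant. All 4 entries together had 34 and 302 reads, and as some may share reads they are no independent measurements.

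Set beside the other total libraries, the mutant was above all but the UV library. Antisense reads of rrn-3.1 stood at 34.8 per 1000000 reads of the gene in N2 after cold shock (29.9 to 40.3), at 30.8 in eri-1 without UV (26.2 to 35.9) and at 7500 in eri-1 with UV (7416 to 7584). The value of the mutant, 359.6, lay between these. The same order held for rrn-1.1 and rrn-1.2, at 120 and 69.3 in the mutant and at most 22.5 in the 3 libraries without UV. For 5.8S rRNA the mutant, at 191, lay within the interval of N2, from 140 to 325.

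**Figure D1:**
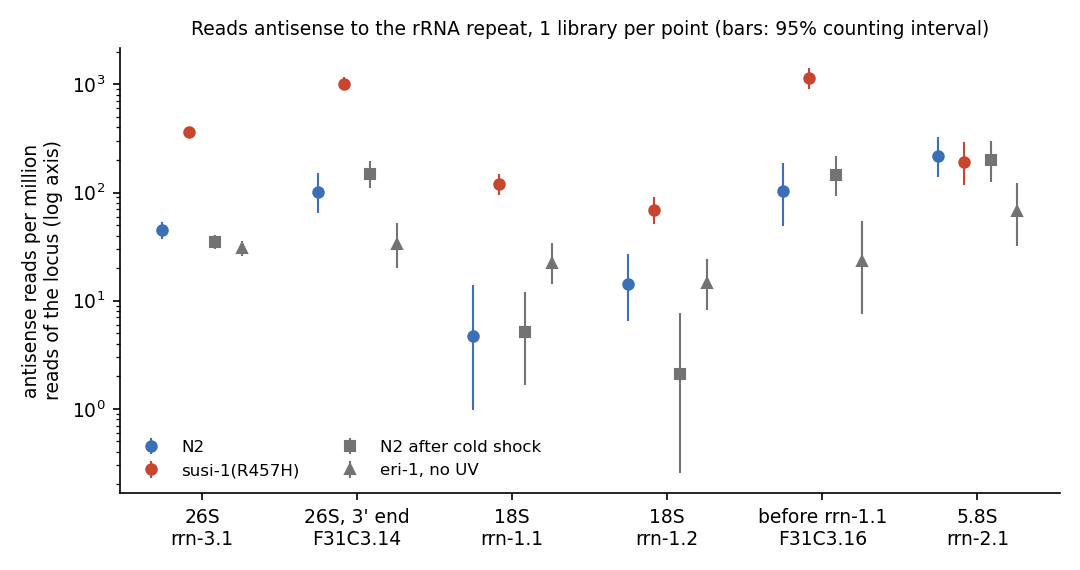
Reads antisense to each rRNA locus per 1000000 reads of that locus on a log axis, 1 library per point, with 95% counting intervals as bars. At 26S and 18S rRNA and at the entries F31C3.14 and F31C3.16 the susi-1(R457H) library lies above the other 3 shown, and at 5.8S rRNA it does not; F31C3.14 and F31C3.16 may share reads, and eri-1 with UV is not drawn.

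On the sense strand, 5S rRNA was the rRNA that differed. The 13 copies counted in sense had 241128 reads in N2 and 573372 in the mutant, a ratio of 2.34 (2.33 to 2.35). A further 3 copies (rrn-4.4, rrn-4.3, rrn-4.2), whose reads are mostly antisense in every library and are therefore set apart, moved likewise, from 65115 to 178483, a ratio of 2.69 (2.67 to 2.72). Together the 16 copies made up 4.97% of assigned reads in N2 and 12.0% in the mutant. The repeat that holds 18S, 5.8S and 26S rRNA made up 77.6% and 77.9%. The sense ratios of 18S and 5.8S rRNA were 1.08 and 0.984. Since 11 copies had nearly even counts, from 20251 to 21130 in N2 and from 49505 to 50973 in the mutant, they share reads and are not separate measurements. The copy rrn-4.15 had 11946 and 20397 reads, a ratio of 1.68, and rrn-4.16, the single copy on chromosome I, had 6 and 1.

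The other 12 classes were shifted in opposite directions. Of 2265 genes that had at least 50 reads in both libraries together, on the strand that carries their class's small RNA, 324 were at least 2-fold higher in the mutant with an interval above 1, 14.3% of those compared, and 1112 were at least 2-fold lower, 49.1%. The median log2 ratio was -0.96. Of the 324, 93 were tRNA genes and 117 ncRNA entries, 107 of them opposite another small RNA gene. Gene copies among these hold nearly even counts, such as the tRNA genes rte-1 to rte-5 with 868 to 897 reads in N2, so they are not separate measurements. The split depends on the total: the counts were 47 and 1450 with assigned reads, 593 and 701 with TMM, 698 and 504 with DESeq2 size factors and 858 and 270 with microRNA reads, where the median is positive at 0.42. The order of the classes is the same on every scale, since a scale moves all of them alike.

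Small RNAs of the classes that Argonautes carry were on the low side, apart from antisense reads of lincRNAs. Of protein-coding genes, 934 of 1321 were at least 2-fold lower in antisense reads and 30 higher (median log2 ratio -1.42). Of 49 microRNAs, 41 were lower and 1 higher, with a median of -1.40. Of 54 pseudogenes 42 were lower and 0 higher (median -1.66), of 76 transposon genes 65 were lower and 3 higher (median -1.78), and of 13 piRNAs 8 were lower and 0 higher (median -1.58). Summed, antisense reads of protein-coding genes numbered 337738 in N2 and 100018 in the mutant, and sense reads of microRNAs 211180 and 48112, which are 2.00-fold and 2.60-fold lower. LincRNAs differed, with 3 of 17 higher, 6 lower and a median of -0.14. Their antisense sum went from 18940 to 15906 reads, a ratio of 1.42 (1.39 to 1.45). With assigned reads as the total that ratio is 0.826 (0.808 to 0.843). Of the sum, linc-22 held 7647 reads in N2 and 6759 in the mutant, and linc-11 held 3098 and 4030.

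Fragments of abundant noncoding RNAs were on the high side. Of 101 small nucleolar RNAs (snoRNAs), which guide rRNA modification, 60 were higher and 0 lower (median log2 ratio 1.12). Of 232 tRNAs 93 were higher and 1 lower (median 0.80), and of 60 small nuclear RNAs (snRNAs) of the spliceosome 15 were higher and 1 lower (median 0.62). The 6 splice leader genes had a median of 0.85 and the 14 mitochondrial genes one of 0.46, with 0 of the latter 2-fold apart. Sense reads of protein-coding genes, pieces of mRNA, numbered 256992 in N2 and 240583 in the mutant, a ratio of 1.58. With assigned reads as the total that ratio is 0.920 (0.915 to 0.926). Antisense reads thus made up 56.8% of protein-coding reads in N2 and 29.4% in the mutant, a pair of shares that needs no common scale.

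**Figure D2:**
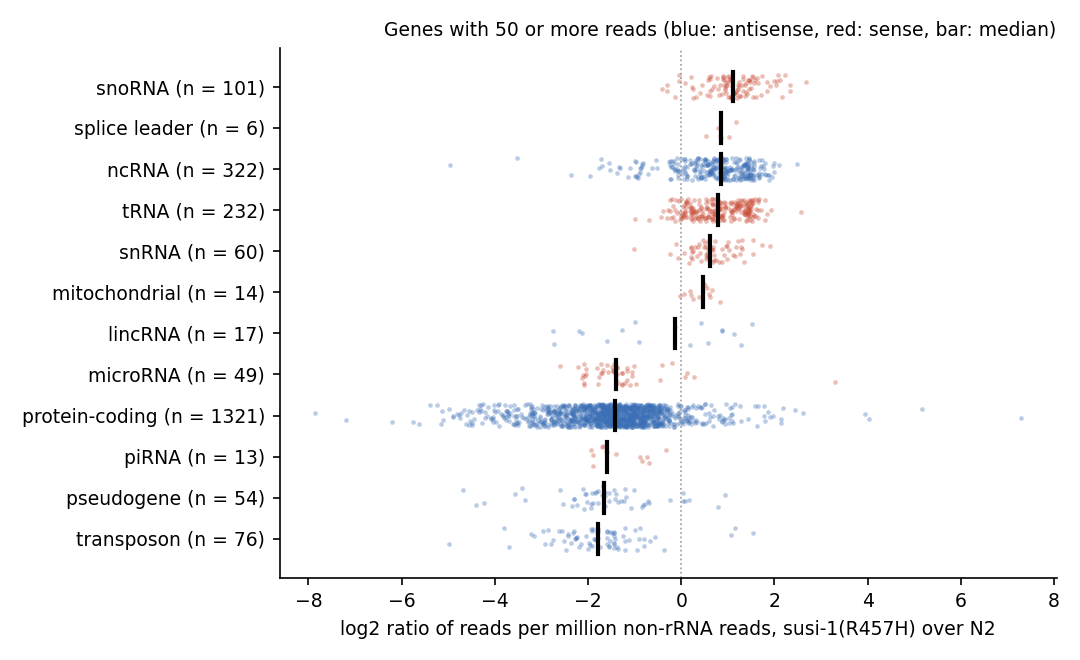
Log2 ratio of each gene with 50 or more reads, susi-1(R457H) over N2 on the scale of non-rRNA reads, by RNA class, with the class median as a black bar. Classes of Argonaute-bound small RNA (piRNA, microRNA and the antisense reads of protein-coding genes, pseudogenes and transposons) have medians from -1.78 to -1.40, those of structural RNA fragments from 0.46 to 1.12, and antisense reads of lincRNAs one of -0.14.

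Among the siRNAs, the 6 listed targets of germline WAGO Argonautes were far lower in the mutant. The list was chosen with earlier results of these data known, so it cannot show how WAGO targets in general differ. All 6 listed targets were at least 2-fold lower, with 2689 CPM in N2 and 418 CPM in the mutant and a median log2 ratio of -2.85, against -1.28 over all 3412 protein-coding genes with 20 or more antisense reads, of which 1929 were at least 2-fold lower (56.5%) and 74 higher (2.17%). F15D4.5 went from 1040 to 27 reads, 22.8-fold lower (15.6 to 34.8). Y48G1BM.6 went from 537 to 26, between 8.25-fold and 18.9-fold lower by its interval. The gene bath-45 went from 1017 to 174, 3.46-fold lower (2.94 to 4.09). The median of these targets keeps its sign on every scale used.

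The lowest gene by its interval was sqst-1, which encodes an autophagy receptor related to p62. Its antisense reads numbered 1226 in N2 and 13 in the mutant, 55.8-fold lower (32.5 to 105), while its sense reads numbered 92 and 93. C44C1.1 went from 287 to 4 reads (42.5-fold lower), fbxc-39 from 209 to 3 (41.2-fold), Y39C12A.9 from 320 to 5 (37.9-fold) and Y37D8A.6 from 403 to 7 (34.1-fold). The leucine-rich repeat gene pan-1 went from 433 to 11 (23.3-fold lower) and jmjc-1, a gene of the JmjC family of hydroxylases, from 424 to 11 (22.8-fold). These genes had at least 209 siRNA reads each in N2 and at most 13 in the mutant.

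The same held for single pseudogenes and transposon genes. The pseudogene fbxa-149 went from 581 to 13 reads, 26.5-fold lower (15.4 to 50.0), and Y82E9BR.1 from 237 to 7. The transposon gene F44E2.2 went from 884 to 16 reads, 32.7-fold lower (20.0 to 57.5), and T23B12.10 from 339 to 15. At the other end, the pseudogene W04B5.2 went from 1038 to 1069 reads, a ratio of 1.74. W05H12.2 went from 602 to 682, but it lies opposite W05H12.4, whose sense reads went from 463 to 508, so its reads may belong to that gene.

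The small set of siRNAs that NRDE-3 carries in quantity did not share the shift. The 1468 protein-coding, pseudogene, lincRNA and transposon genes with 50 or more antisense reads in the pair were divided by their antisense reads in the NRDE-3 pulldown from N2 after cold shock, a strain with a tagged nrde-3 and a library that is no part of the comparison. The 61 genes at 1000 CPM or more there had a median log2 ratio of 0.36 in the mutant, with 13 at least 2-fold higher and 5 lower. The 1407 genes below had a median of -1.48, with 23 higher and 1042 lower. The genes under the limit were further divided at 1, 10 and 100 CPM. From the lowest of these ranges to the highest, the medians were -1.43, -1.47, -1.53 and -1.41, with no gradient. The calls were less even. In the same order, 96 of 140, 589 of 785, 322 of 421 and 35 of 61 genes were lower, and 9, 7, 2 and 5 were higher. The range from 100 to 1000 CPM, next to the limit, thus held the smallest share of lower genes. Whether the change at 1000 CPM is a sharp step was not tested. With assigned reads as the total the median of the upper set is -0.42 and that of the lower -2.26. The gap between both sets is the same on all scales. With limits of 300 or 3000 CPM, chosen after seeing the data, the upper medians were 0.17 and 0.38. The split by NRDE-3 reads and its limit of 1000 CPM were not planned beforehand either.

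**Figure D3:**
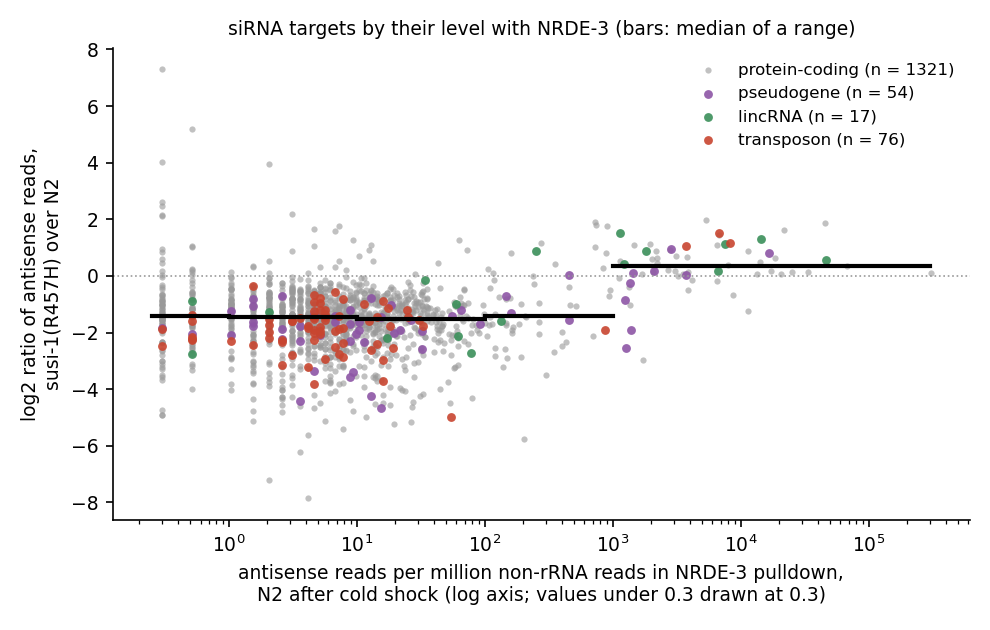
Log2 ratio of antisense reads, susi-1(R457H) over N2, for 1468 siRNA target genes against their antisense CPM in the NRDE-3 pulldown of N2 after cold shock (log axis), colored by class, with medians of the ranges as black bars. The medians lie between -1.53 and -1.41 up to 1000 CPM and at 0.36 above.

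Each class had genes in that upper set. The 42 protein-coding genes at 1000 CPM or more had a median log2 ratio of 0.20, with 7 higher and 3 lower, against -1.45 for the 1279 below. The 7 long intergenic noncoding RNAs (lincRNAs) there had a median of 0.88, with 3 higher and 0 lower, against -1.43 for 10 below. The 9 pseudogenes had a median of 0.04, and all 3 transposon genes were higher. T16A1.9 went from 319 to 546 reads, a ratio of 2.89 (2.51 to 3.33), Y60A3A.27 from 711 to 931 (2.21) and T25G12.8 from 643 to 795 (2.09). The lincRNAs that were higher, named after their values were seen, were linc-11, from 3098 to 4030 reads, linc-16, from 834 to 1208 (2.45), and linc-17, from 368 to 623 (2.86).

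Known targets of ERGO-1, the Argonaute whose siRNAs feed NRDE-3 in embryos, overlap that set. Of the 18 listed, 14 were matched and all 14 had 20 or more reads, 1 of them 2-fold higher, 1 lower and 12 neither. Their median log2 ratio was 0.25, which turns to -0.53 with assigned reads. Of the 13 with 50 or more reads, 8 are in the upper NRDE-3 set, so these values are partly the same genes again. The 5 below the limit had a median of -0.44, and the other 53 genes of the upper set one of 0.21. The lincRNA linc-22 went from 7647 to 6759 reads, a ratio of 1.49 (1.44 to 1.54), E01G4.5 from 4738 to 2990, a ratio of 1.07 (1.02 to 1.12), and F55C9.3 from 1745 to 2211, a ratio of 2.14 (2.01 to 2.28). Antisense CPM of these 3 targets were thus level or higher while those of the listed WAGO targets were lower.

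Genes at least 2-fold higher in antisense reads were few, 36 of the 1468, and 13 of them (36.1%) lay in the NRDE-3 set, which holds 61 of the 1468. F49B2.3 went from 705 to 1509 reads, a ratio of 3.62, ZC132.4 from 995 to 1819, a ratio of 3.09 (2.86 to 3.34), and fbxb-37 from 732 to 1166, a ratio of 2.69 (2.45 to 2.96). In the NRDE-3 library these stood at 45300, 21936 and 6769 CPM. Y46H3C.5 went from 170 to 395 reads (3.92), but a neighbor on the same strand overlaps it, so its value is uncertain. W04A8.4 went from 145 to 293 (3.41), and stood at 898 CPM with NRDE-3, just under the limit.

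Another 16 of the 36 were under 10 CPM with NRDE-3, and among these were the highest ratios of the comparison. F22F1.2 had 2 antisense reads in N2 and 233 in the mutant, a ratio of 197 (53.9 to 1634), with 0 reads in the NRDE-3 library. The gene dot-1.2, one of the worm's relatives of the histone H3 methyltransferase DOT1, had 39 and 362, a ratio of 15.7 (11.2 to 22.4). AH10.2 with 2 and 53 reads and ncs-6 with 5 and 53 were named after their values were seen. In N2 after cold shock F22F1.2, dot-1.2, AH10.2 and ncs-6 had 1, 4, 0 and 0 antisense reads, and in eri-1 without UV 2, 26, 2 and 4. Antisense reads of F22F1.2, AH10.2 and ncs-6 thus numbered 5 or fewer in N2, in N2 after cold shock and in eri-1 without UV. The library of eri-1 with UV was not compared here. These genes reached the read minimum only through the mutant. Whether their antisense reads are siRNAs or pieces of RNAs from the opposite strand was not tested. The demethylase gene jmjd-3.3, which is not among the 16, went from 319 to 453, a ratio of 2.40 (2.07 to 2.78). It stood at 62.6 CPM with NRDE-3 and had 85 antisense reads in N2 after cold shock and 427 in eri-1 without UV.

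Lists of siRNA targets by function had antisense medians from -2.39 for autophagy genes to -0.83 for nuclear RNAi genes, beside -1.28 over all protein-coding genes with 20 or more reads, of which 56.5% were lower and 2.17% higher. Beside that share, counts of lower members are a description and set no list apart. Of 12 Argonaute genes with 20 or more antisense reads, 8 were lower and 1 higher, nrde-3 itself, with 6 reads in N2 and 39 in the mutant. The piRNA Argonaute prg-1 went from 268 to 60 (2.64-fold lower) and the germline nuclear Argonaute hrde-1 from 232 to 30 (4.58-fold lower). Of 23 genes of the RNA polymerase and Dicer complexes 9 were lower and 0 higher, with eri-6, a helicase gene of the ERGO-1 pathway, going from 1316 to 104 (7.49-fold lower). Of 17 uridylation and decay genes 12 were lower and 0 higher, and parn-1, a deadenylase gene, went from 206 to 34 (3.59-fold lower).

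In the remaining lists most called members were also lower. Lower were 12 of 19 rRNA processing genes, 9 of 10 ribosomal protein genes, 19 of 26 maternal RNA-binding and eggshell genes, 4 of 8 histone genes, 9 of 12 cuticle genes, 12 of 22 DNA damage genes, 10 of 22 heat shock and chaperone genes, 7 of 15 proteasome genes and 5 of 8 autophagy genes, and 0 members were higher in any of these. The shares of the RNA polymerase and Dicer, histone, DNA damage, heat shock and proteasome lists were below the 56.5% of all protein-coding genes. The linker histone gene his-24 went from 1794 to 211 reads (5.03-fold lower), the P granule gene pgl-1 from 127 to 9 (8.35-fold) and the checkpoint kinase gene chk-2 from 200 to 41 (2.89-fold). The list of C-type lectin and other immune genes had 42 of 68 lower and 3 higher. For the Argonaute, RNA polymerase and Dicer, uridylation and decay, rRNA processing, histone, maternal, heat shock, DNA damage and proteasome lists the median becomes positive with microRNA reads as the total, at most by 0.35.

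Within the microRNA pool the mutant library kept most proportions. On the scale of non-rRNA reads 50 of 69 microRNAs with 20 or more reads were at least 2-fold lower, 72.5%, and 2 higher, 2.9%. As shares of microRNA reads, 60 of the 69 were within 2-fold or had intervals across 1, 8 were higher and 1 was lower. The most-read microRNA, mir-57, had 39838 and 10203 reads, 2.31-fold lower over non-rRNA reads and 1.12-fold higher within the pool. Next came mir-82 with 34931 and 9245 reads (0.447 over non-rRNA reads, 1.16 within the pool), mir-35 with 29436 and 5070 (0.291 and 0.756), mir-81 with 20708 and 6229 (0.508 and 1.32) and mir-72 with 13204 and 2432 (0.311 and 0.808).

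Families differed modestly from each other. The mir-58 family went from 27.1% to 32.9% of microRNA reads, a ratio of 1.21 (1.19 to 1.23), and the mir-51 family from 2.91% to 3.51%, although both were lower over non-rRNA reads. The mir-35 family, which acts in embryo survival, had a ratio of 0.751 (0.734 to 0.768). The group of mir-63 to mir-66 and mir-229 went from 5.23% to 3.21%, a ratio of 0.613 (0.581 to 0.647). Its member mir-64 was the only microRNA called lower within the pool, going from 5378 to 526 reads, 2.33-fold lower there, while mir-229 of the same group had a ratio of 1.29.

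The microRNAs higher within the pool were mostly scarce. By reads in N2 and the mutant these were mir-260 with 357 and 230 (2.83-fold higher within the pool, 2.39 to 3.35), let-7 with 206 and 129 (2.75, 2.19 to 3.44), mir-238 with 59 and 30, mir-2214 with 55 and 39, mir-1820 with 20 and 14 and mir-788 with 11 and 10. Higher on both scales were mir-246, with 7 and 43 reads and a ratio of 10.4 over non-rRNA reads (4.63 to 27.3), and mir-262, with 5 and 26 (8.78, 3.32 to 29.3). These last 2, and the scarce microRNAs other than mir-260 and let-7, were named after their values were seen.

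**Figure D4:**
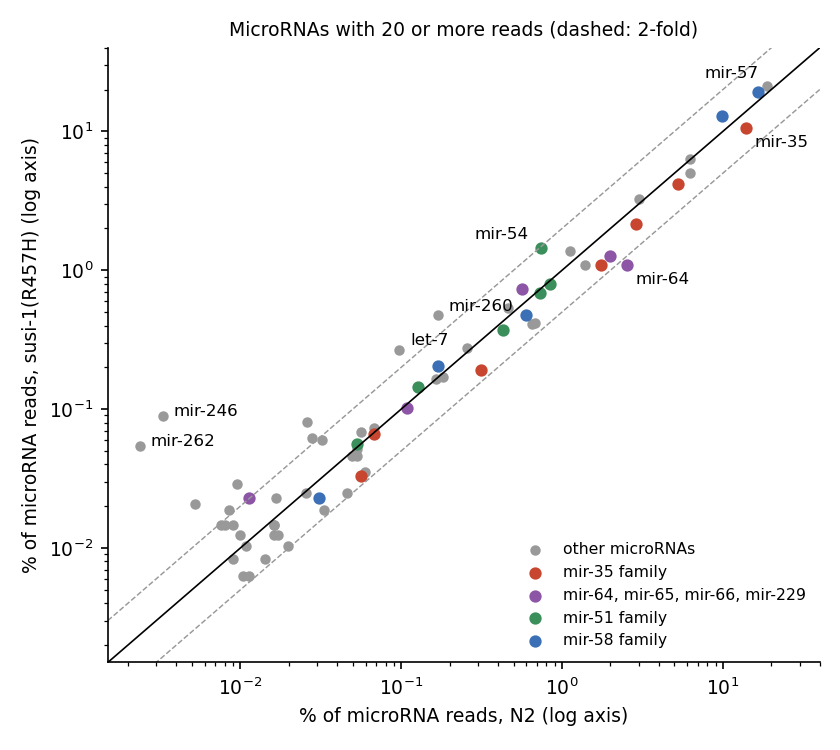
Share of microRNA reads of each microRNA with 20 or more reads in the pair, N2 on the x axis and susi-1(R457H) on the y axis, both log axes, with families colored and dashed lines at 2-fold. Most points lie within 2-fold of the diagonal, mir-64 lies below it, and mir-246, mir-262, let-7 and mir-260 lie above.

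Among single noncoding RNAs, the snoRNA T26A8.6 went from 702 to 1796 reads, a ratio of 4.32 (3.96 to 4.72), F11A10.9 from 108 to 288 and F30H5.4 from 60 to 181 (5.10). At the low end ZK265.10 went from 562 to 251 (0.754) and smy-3 from 786 to 374 (0.804), so snoRNAs ranged from 0.754 to 6.63 in ratio. The tRNA genes K02E11.t1 and H35N09.t2 went from 356 to 1362 CPM (3.83) and from 382 to 1255 CPM (3.29), and T01B4.t4 from 412 to 306 CPM (0.741). Single tRNA values are uncertain, since copies may share reads. Y40A1A.5, a tRNA in the files but an ncRNA in the Ensembl annotation, went from 128 to 454 (5.99). The snRNA F10D2.13 went from 296 to 512 (2.92) and F32B5.9 from 630 to 895 (2.40). With assigned reads as the total the medians are 0.34 for snoRNAs and 0.02 for tRNAs.

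Many genes of the class the files call ncRNA overlap these RNAs. Of its 322 genes with 50 or more antisense reads, 286 lie opposite another small RNA gene: 240 opposite a tRNA, 23 opposite an snRNA, 15 opposite an snoRNA, 6 opposite a microRNA and 2 opposite a splice leader. Antisense reads of these entries are reads on the strand of the RNA that lies opposite, but their counts often differ from those of that RNA. In 163 of the 286 the entry's antisense reads and the sense reads of the gene opposite were within 2-fold in both libraries, and in 99, of which 98 lie opposite tRNAs, the entry had over 2-fold more in both. Summed, the 240 entries opposite tRNAs had 75985 and 82232 reads, and the tRNA genes opposite them, counted once for each entry, 37434 and 46841. Those opposite tRNAs had a median log2 ratio of 0.87, those opposite snoRNAs 1.19 and those opposite microRNAs -1.35. T19C4.19 went from 904 to 2284 (4.27), whereas the tRNA gene opposite it, T19C4.t1, had 33 and 41 sense reads. ZK930.13 went from 685 to 104 (3.90-fold lower), and mir-45 opposite it from 1381 to 197. W03H9.2, an ncRNA in the files and protein-coding in Ensembl, went from 1897 to 219 (5.13-fold lower). The mitochondrial rRNA genes at MtDNA:10403-11354 and MtDNA:898-1593 went from 4342 to 3364 reads (1.31) and from 3427 to 2991 (1.47), and the list's median of 0.46 turns to -0.32 with assigned reads.

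Sense fragments of mRNAs separated ribosomal protein genes from the rest. Of 81 ribosomal protein genes with 20 or more sense reads, 79 were at least 2-fold higher, and the list went from 7942 to 17068 reads, a ratio of 3.63 (3.53 to 3.73). Over all 4680 protein-coding genes with 20 or more sense reads, 938 were higher (20%) and 89 lower (1.9%). Their median log2 ratio was 0.56, against 1.85 for the list. The most-read members were rpl-5, from 234 to 595 reads (4.29, 3.69 to 5.02), rpl-3, from 237 to 529 (3.77), and rpl-19, from 258 to 484 (3.17). The members not called were rpl-29, from 51 to 47, and rsl-24D1, with a log2 ratio of 0.05. The list's median stays positive on every scale, at least 1.07.

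Yolk genes were the reverse. The vitellogenin genes, which adults transcribe to load oocytes, had 904 sense reads in N2 and 101 in the mutant, 5.30-fold fewer, and all 6 were at least 2-fold lower. Their median log2 ratio was -2.28, which stays negative on every scale. By gene, vit-6 went from 330 to 33 reads, vit-2 from 255 to 37, vit-5 from 115 to 8, vit-3 from 83 to 4, vit-4 from 76 to 12 and vit-1 from 45 to 7. Vitellogenin genes are close copies, so single values are uncertain. The larval let-7 share and the mir-35 family share given above moved in the same pair of libraries, and their part in this was not tested.

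Other lists lay between. Of 21 rRNA processing genes 10 were higher and 0 lower (median log2 ratio 1.02). In this list, nucl-1 (nucleolin) went from 162 to 162 reads, a ratio of 1.69, and fib-1 (fibrillarin) from 100 to 70 (1.18). Of 86 genes named col-, dpy-, sqt-, rol- or bli-, most of them cuticle collagens, 37 were higher and 3 lower, with ratios from 0.256 to 12.7 and a median log2 ratio of 0.92. Of 71 histone genes 9 were higher and 0 lower (median 0.65), and of 17 muscle and neuron genes 2 were higher and 0 lower (median 0.71), both near the level of all genes and both slightly negative, at -0.13 and -0.07, with assigned reads. Of 32 proteasome genes 2 were higher and 0 lower, with a median of 0.20. The most-read mRNAs were long ones: anc-1, a nuclear anchorage gene, went from 3086 to 3563 reads (1.95), ZC247.1 from 3309 to 2582 (1.32), the titin gene ttn-1 from 3129 to 2088 (1.13) and the myosin gene unc-54 from 1888 to 1740 (1.56).

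**Figure D5:**
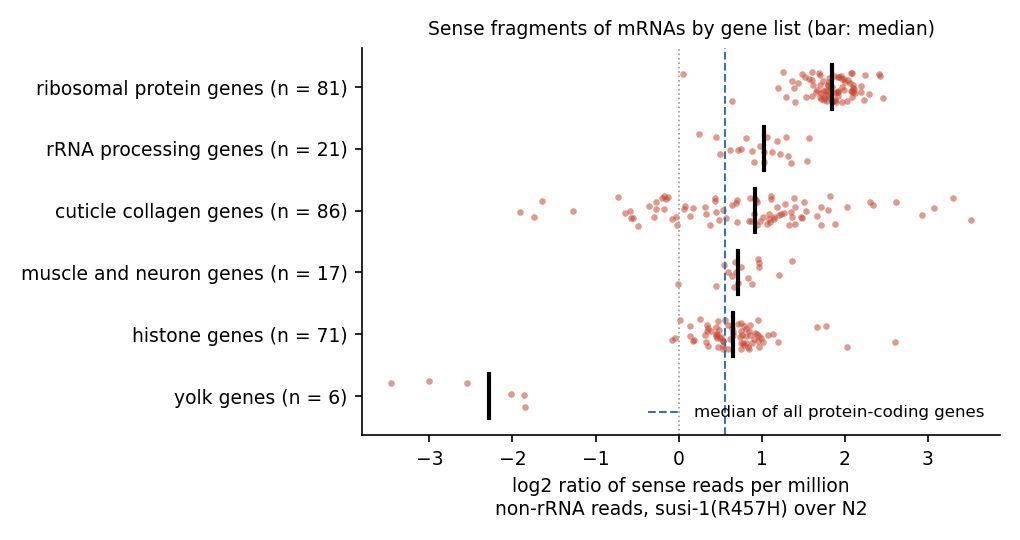
Log2 ratio of sense reads, susi-1(R457H) over N2 on the scale of non-rRNA reads, for members of 6 gene lists with 20 or more sense reads, with list medians as black bars and the median of all protein-coding genes (0.56) as a dashed line. Ribosomal protein genes lie to the right of that line apart from rsl-24D1, and all 6 yolk genes lie left of 0.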

How the data were processed

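The deposited tables hold whole-number counts of reads per RNA, split by the authors into sense and antisense, per the file headers. Bowtie2 is named in the submitters' processing notes. Its version and role, the genome build, the annotation and the treatment of reads with several matches are not stated in the sources used here. Copies of a gene that are identical hold nearly even counts.

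Counts of 56374 entries were summed to 45510 genes, of which 44852 matched Ensembl release 115 (WBcel235) by WormBase identifier and 44187 matched RefSeq. How far entries of 1 gene share reads is not stated. The 6 ncRNA entries opposite microRNAs had 3445 antisense reads in N2, and the microRNA genes opposite them 6716 sense reads. With the largest entry in place of the sum, the microRNA share of non-rRNA reads in N2 was 13.9% against 19.7%. Coordinates come from Ensembl. Lines without a gene name, with 7 reads in N2 and 11 in the mutant, were left out. Antisense reads were used for rRNA, protein-coding, pseudogene, lincRNA, transposon and ncRNA genes, and sense reads for the other classes, with both strands given where both matter. Intervals of CPM ratios are 95% Clopper-Pearson intervals, conditional on the sum of both counts. A gene with 50 or more reads in the pair was called higher or lower where the ratio was at least 2 or at most 0.5 and the interval excluded 1. Lists took members with 20 or more reads, and log2 ratios had 0.5 reads added to both counts. A count of 0 was read as at most 3 counts, which is 2.80 CPM in N2 and 4.73 CPM in the mutant over non-rRNA reads. No test was made, since each side held 1 library.

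The named genes are all rRNA genes, disl-2, eri-1 and nrde-3. Among genes with 200 or more reads, ranked by the bound of the interval that lies nearest 1, they also include the top and bottom: 8 protein-coding genes, 5 microRNAs and 4 of each other class at either end. The 5 most-read microRNAs, the 5 protein-coding genes with most sense reads and the 3 most-read members of a list complete the rule, and not every one is described. Genes outside it are said to be chosen after their values were seen. The 26 gene lists and all members were chosen with earlier results of these data known. Neither the split by NRDE-3 reads nor the medians of sense reads for lists of protein-coding genes were planned beforehand. In sense reads the yolk genes beyond the 3 most-read, and the genes rpl-31, rpl-29 and rsl-24D1, stand outside the rule.

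Alternatives were other totals, DESeq2 size factors and edgeR TMM factors (used only for scaling), the largest entry of a gene in place of the sum, other read minimums and both strands together. The interval code was tested on simulated data. Python 3.11.15 with scipy 1.17.1 and pandas 2.3.3, and R 4.3.3 with DESeq2 1.42.0 and edgeR 4.0.16, were used. Sequences were not used here.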

Additional observations from a re-analysis of the deposited data

How the results depend on the processing

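The antisense 5S values in this section are those of 13 copies. Antisense ratios of 26S, 18S, 5.8S and 5S rRNA were 34.9, 48.3, 3.84 and 7.46 with microRNA reads as the total, 23.8, 33.0, 2.62 and 5.1 with DESeq2 size factors and 19.7, 27.3, 2.17 and 4.21 with TMM. With non-rRNA reads they were 13.4, 18.6, 1.48 and 2.87, and with the median ratio of genes 11.8, 16.4, 1.30 and 2.54. Adding the entries of the opposite strand, an alternative chosen after seeing the data, gave 8.01 for 26S and 10.4 for 18S rRNA. Genes higher and lower numbered 858 and 270 with microRNA reads, 698 and 504 with DESeq2 and 593 and 701 with TMM. With assigned reads 47 were higher. The other settings compare other numbers of genes than the 2265 reported, of which 324 were higher and 1112 lower. With 20 or more reads 458 of 4788 were higher and 2206 lower (46.1%, against 49.1% as reported). With 200 or more 161 of 805 were higher and 313 lower, and with both strands 660 of 4941 were higher and 910 lower. The median log2 ratio of all genes compared was 0.42 with microRNA reads and 0.0605 with both strands, both opposite in sign to the value reported, and -0.13 with DESeq2, -0.40 with TMM, -1.14 with the median ratio, -1.74 with assigned reads and -0.00197 with 200 or more reads. A median was taken as moved beyond 0.1. For antisense reads of protein-coding genes the median was -0.0423 with microRNA reads, -0.59 with DESeq2, -0.87 with TMM, -1.60 with the median ratio, -2.20 with assigned reads, -1.28 with 20 or more reads, -1.64 with 200 or more and -0.0467 with both strands. For microRNAs it was -0.0186, -0.57, -0.84, -1.58 and -2.18 in the first 5 of these settings. For snoRNAs it was 2.50, 1.95, 1.67, 0.94 and 0.34, and 1.22 with 200 or more reads. For tRNAs it was 2.18, 1.63, 1.35, 0.62 and 0.0190, and 0.66 with 200 or more. Taking the largest entry of a gene gave rRNA shares of 85.7% and 91.5%, antisense shares of protein-coding reads of 62.3% and 35.2% and microRNA shares of 13.9% and 5.36%, N2 first. Without the 10 protein-coding genes with most reads the antisense shares were 55.2% and 26.8%. With microRNA reads as the total, list medians that changed sign were 0.0212 (mir-51 family), 0.22 (mir-58 family), 0.42 (let-7 and lin-4 families), 0.0916 (tissue microRNAs), 0.0450 (Argonautes), 0.34 (RNA polymerase and Dicer complexes), 0.55 (nuclear RNAi), 0.0128 (uridylation and decay), 0.25 (rRNA processing), 0.0370 (histones), 0.00630 (maternal), 0.22 (sperm), 0.20 (heat shock), 0.11 (DNA damage) and 0.35 (proteasome). The transposon sum was then 1.203-fold higher, mir-57 1.12-fold and mir-82 1.16-fold. With both strands the antisense medians became 0.18 (rRNA processing), 1.71 (ribosomal protein), 0.62 (histones), 0.70 (cuticle), 0.24 (heat shock), 0.0380 (autophagy) and 0.69 (muscle and neuron). With assigned reads those of ERGO-1 targets, the mitochondrial genome, histone sense reads, muscle and neuron sense reads and the upper NRDE-3 set became -0.53, -0.32, -0.13, -0.0714 and -0.42. With 200 or more reads that of the let-7 and lin-4 families became 0.0830. Some class sums above 1 on the scale of non-rRNA reads fell below 1 with assigned reads. These include sense reads of protein-coding genes, from 1.58 to 0.920, and antisense reads of lincRNAs, from 1.42 to 0.826. Antisense reads of the ncRNA class went from 1.69 to 0.982. The scales differ by 1 factor per library, and which of them matches RNA per embryo was not tested. No paired analysis was possible because each group held 1 library. The 634501 non-rRNA reads of the mutant limit what can be seen of scarce RNAs, and the spread between cultures is unknown.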

Other observations

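Among protein-coding genes with 50 or more antisense reads, those on the X chromosome were lower in the mutant than those on the autosomes. The median log2 ratio was -2.26 over 123 genes on X, of which 98 were at least 2-fold lower and 7 higher, and -1.38 over 1189 genes on the autosomes, of which 830 were lower and 22 higher. Each autosome was near that value, from -1.45 on chromosome IV to -1.35 on chromosome II. With the genes that NRDE-3 carries at 1000 CPM or more left out, the medians were -2.32 and -1.41. The genes on X had more reads in N2, with a median of 150 against 75, and about as many in the mutant, 16 against 17. At 200 or more reads the median on X was -1.85 over 54 genes, and those of the autosomes ran from -1.69 on III to -1.26 on V. There 39 of the 54 genes on X were at least 2-fold lower (72.2%), a smaller share than on I (79.6%), II (75.8%), III (82.4%) and IV (79.2%) and a larger one than on V (64.1%), so the larger share on X at 50 reads does not hold at 200. Sense reads showed no such gap, with medians from 0.51 on I to 0.64 on X. The pattern was noticed in these data, and no test was made of it.

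LincRNAs held genes higher and genes lower in antisense reads, as did protein-coding and transposon genes. Ratios ran from 0.132 to 2.86 over lincRNAs, from 0.0306 to 2.89 over transposon genes and from 0 to 197 over protein-coding genes. Of 17 lincRNAs with 50 or more antisense reads 3 were at least 2-fold higher and 6 lower. Beside linc-11, linc-16 and linc-17, described above, linc-68 went from 397 to 433 reads, a ratio of 1.84, while linc-29 went from 1521 to 135, 6.67-fold lower, and linc-7 from 827 to 162, 3.02-fold lower. These genes were chosen after their values were seen.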
